A study of Mus musculus with 9 samples.

Results

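The regions described here are the ZEB1 CUT&RUN peaks at integrin and laminin genes in PB3 cells. PB3 is a mouse mammary tumour line that its labels call negative for the oestrogen receptor, the progesterone receptor and HER2. A consensus peak was a member when its centre lay inside a protein-coding integrin subunit gene (Itga or Itgb) or laminin chain gene (Lama, Lamb or Lamc). It was also a member when such a gene had the nearest protein-coding gene boundary within 50 kb. This gave 104 of 23623 consensus peaks, and 91 of the 104 had enough counts to be tested. They lay at 29 of the 38 genes of the family. These were 19 of 27 integrin genes, with 69 peaks, and 10 of 11 laminin genes, with 35 peaks. Itga4, Itga7, Itga9, Itgad, Itgae, Itgal, Itgax, Itgb2l and Lama1 had no member peak. The outermost peak inside the limit lay 46.33 kb from Lama2. The nearest left outside lay 50.68 kb from Itga11 and 52.87 kb from Itga8. Such a gene is a neighbour of the peak and not a shown target.

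The groups were parental PB3 cells held for 24, 48 or 72 h in eribulin at 300 nM and parental PB3 cells without the drug, with 2 ZEB1 libraries each. Eribulin is a drug that stops microtubules from growing. One more library from untreated cells used IgG in place of the antibody and served the authors' peak lists only. Eribulin cells were compared with untreated cells at each time and over the mean of the 3 times, and 72 h was compared with 24 h. All comparisons with untreated cells share the same 2 untreated libraries. Counts in the consensus peaks summed to between 326944 and 765015 per library, and the members took between 0.428 and 0.518% of them. The libraries of a group differed by about counting error. The labels do not say whether they came from separate cultures, so a p-value here speaks of the spread among these libraries alone, which may be technical. The signal is an average over cells, so less ZEB1 per cell and fewer cells with ZEB1 cannot be told apart. Each change is a shift of a peak's share among the peaks of its library. All cells are 1 line, and ZEB1 occupancy does not measure expression, so it gives no check of the labelled receptor state. A peak was assigned to 2 of the 3 receptor genes (Esr1 and Erbb2, not Pgr), 4 of 4 epithelial, 2 of 4 fibroblast, 2 of 3 endothelial and 4 of 7 leukocyte marker genes.

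Laminins are secreted proteins of an alpha, a beta and a gamma chain that build the sheet of basement membrane under an epithelium. Integrins are surface receptors of an alpha and a beta subunit that hold cells to laminin, collagen or fibronectin and link them to the cytoskeleton. ZEB1 is a zinc finger factor that drives the epithelial to mesenchymal transition, mostly as a repressor, and it binds the E-box CACCTG. Cells in that transition are known to change which integrins and laminin chains they make.

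The promoters where ZEB1 signal and the E-box can be read together are shown first. RefSeq start windows of GRCm38.p6, 250 bases before to 50 after the start, were given for 24 of the family's genes (27 windows). CACCTG or its reverse complement CAGGTG stood in 8 of these 27 windows (29.6%). The share was 20.2% over the promoter windows of all genes (6640 of 32851) and 16.3% over windows that overlap a consensus peak (1196 of 7318). A member peak overlapped the windows of 6 genes (Itga3, Itga5, Itgb1, Itgb8, Lama5 and Lamb1), and 3 of these windows held an E-box. The 250 bases upstream of the start of those 3 genes follow, read 5′ to 3′ on the gene's strand, with each E-box in capitals.
Itga3, chr11:95076715-95076964, minus strand: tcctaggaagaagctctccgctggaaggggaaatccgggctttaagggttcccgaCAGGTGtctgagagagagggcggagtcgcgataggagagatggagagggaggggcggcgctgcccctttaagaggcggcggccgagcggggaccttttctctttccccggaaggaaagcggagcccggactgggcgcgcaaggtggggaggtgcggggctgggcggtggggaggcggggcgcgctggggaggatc
Lama5, chr2:180225860-180226109, minus strand: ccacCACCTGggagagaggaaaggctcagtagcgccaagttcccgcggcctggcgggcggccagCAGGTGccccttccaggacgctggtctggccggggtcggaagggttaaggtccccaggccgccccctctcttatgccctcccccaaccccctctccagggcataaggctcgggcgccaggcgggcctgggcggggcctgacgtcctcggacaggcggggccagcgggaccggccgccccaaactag
Itgb8, chr12:119238277-119238526, minus strand: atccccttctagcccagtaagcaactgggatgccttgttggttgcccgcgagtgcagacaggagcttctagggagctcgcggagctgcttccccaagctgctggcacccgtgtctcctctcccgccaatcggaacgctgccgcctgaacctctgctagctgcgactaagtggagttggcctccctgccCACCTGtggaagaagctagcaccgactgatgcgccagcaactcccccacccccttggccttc
The Itga3 E-box, 195 bases before the start, lay inside the peak chr11:95076355-95077170. Those of Lama5, 246 and 186 bases before the start, lay 158 and 98 bases beyond the edge of the peak chr2:180225390-180225942. The Itgb8 E-box, 62 bases before the start, lay 44 bases beyond the edge of chr12:119238382-119238909. A peak without an E-box in its window stood at the starts of Itga5, Itgb1 and Lamb1, whose upstream bases are shown for comparison.
Itga5, chr15:103366792-103367041, minus strand: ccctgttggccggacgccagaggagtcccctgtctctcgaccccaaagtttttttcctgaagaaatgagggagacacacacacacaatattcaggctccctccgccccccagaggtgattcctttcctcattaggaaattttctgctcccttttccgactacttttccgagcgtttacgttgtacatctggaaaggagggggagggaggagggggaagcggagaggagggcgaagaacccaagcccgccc
Itgb1, chr8:128685404-128685653, plus strand: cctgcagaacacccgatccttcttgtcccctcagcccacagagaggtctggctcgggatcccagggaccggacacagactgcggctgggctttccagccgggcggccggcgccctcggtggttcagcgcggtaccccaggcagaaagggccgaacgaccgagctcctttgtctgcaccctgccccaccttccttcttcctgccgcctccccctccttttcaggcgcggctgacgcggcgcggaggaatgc
Lamb1, chr12:31265043-31265292, plus strand: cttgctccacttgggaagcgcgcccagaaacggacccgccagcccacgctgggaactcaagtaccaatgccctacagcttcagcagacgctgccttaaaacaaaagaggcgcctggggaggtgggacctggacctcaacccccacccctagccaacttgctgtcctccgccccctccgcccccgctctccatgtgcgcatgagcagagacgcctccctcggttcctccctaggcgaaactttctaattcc
A match is a stretch of letters in these windows only. Most member peaks lie outside them, where no sequence was read.

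Most member peaks sat within gene bodies. The centre lay inside a family gene for 71 of 104 members. Sorted by distance, 62 lay inside a protein-coding gene and over 1 kb from the nearest gene boundary (59.6%, against 36.2% of all consensus peaks). Within 1 kb of a boundary, on either side of it, lay 15 (14.4%, against 28.3%), and 27 lay further out (26.0%, against 35.5%). The rule takes any peak inside a family gene, so it favours the first class. Signal is given as CPM, counts scaled to the same total over tested peaks in every library. The median was 32.28 CPM for members and 32.1 CPM for all peaks, or 103.8 and 95.72 CPM per kb of peak, so members were about as strong as the rest. Itgb5 had 11 peaks, Itga3, Itgb6 and Lamc1 8 each, and Itga5 and Itgb1 6 each.

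The strongest member was an intergenic peak 18.73 kb upstream of Itgb1, the common beta subunit, at chr8:128666571-128667287. Untreated cells had 195 and 196 CPM there. The eribulin values were 199.5 and 203 CPM at 24 h, 210.3 and 205 CPM at 48 h and 180.3 and 194 CPM at 72 h. The groups overlapped, with a log2 fold change of 0.022 (SE 0.124) for the mean of the 3 times over untreated cells. Other strong peaks that passed no test lay 9.42 kb upstream of Itga3 (mean 175 CPM over the 8 libraries), inside Lamb1 (157 CPM), inside Itgb2 (144 CPM), inside Itgb5 (131 CPM) and at the boundary of Lamc1 (130.5 CPM).

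Each group has a single deposited peak list from the authors, with no replicate, and those after eribulin held fewer members. Of 104 members 84 overlapped a peak of the untreated list (80.8%, 95% Wilson interval 72.2 to 87.2). The 24 h list held 70 (67.3%, 57.8 to 75.6), the 48 h list 59 (56.7%, 47.1 to 65.8) and the 72 h list 51 (49.0%, 39.6 to 58.5). The same shares over all consensus peaks were 78.7% untreated, 63.0% at 24 h, 60.2% at 48 h and 51.6% at 72 h, so the members went with the rest. In all 4 lists stood 37 members (35.6%, against 34.7% of all peaks), and 23 stood in the untreated list alone (22.1%, against 19.0%). The 4 members in the 3 eribulin lists and not in the untreated list (3.85%, against 2.69%) were 2 peaks of Itga3 and 2 of Itgb1. Depth and the caller's settings bear on how long a list is. The median fold over IgG of the listed members, the authors' own value per peak, was 7.14 untreated, 8.02 at 24 h, 8.43 at 48 h and 6.30 at 72 h.

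Over the mean of the 3 times, eribulin cells had higher ZEB1 signal than untreated cells at 5 of 91 tested members and lower signal at 8. A call is an adjusted p below 0.05 in edgeR's quasi-likelihood test, adjusted after Benjamini and Hochberg over all 21192 peaks tested. The 5 higher were 3 peaks of Lama5, 1 of Lamb2 and 1 of Itga3. None of the 5 overlapped a peak of the untreated list, so each may be in the consensus table only because it was high after eribulin. Their calls are thus no independent support. Among the lower were 1 peak each of Lamc1, Lama2, Lama3, Itgav, Itgb6 and Itgb7. This is 14.3% of members, against 16.8% of all tested peaks, so the members' share lay near the background. By direction 5.49% were higher and 8.79% lower, against 8.27% and 8.53% of all tested peaks.

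The single times gave similar shares. At 24 h 6 members were higher and 3 lower (9.89% in all), where 11% of all tested peaks were called, 6.44% higher and 4.61% lower. At 48 h 4 were higher and 5 lower (9.89%), where the background was 11.5%, with 6.09% higher and 5.41% lower. At both times the members' share lay a little below that of all peaks. At 72 h 6 were higher and 7 lower (14.3%), where the background was 12.6%, with 6.84% higher and 5.74% lower. Between 72 and 24 h no member was higher and 3 were lower (3.30%), where the background was 4.71%, with 2.32% higher and 2.39% lower. All 6 eribulin libraries lay above both untreated libraries at 7 tested members (7.69%, against 12.7% of all tested peaks) and below both at 12 (13.2%, against 12.5%). In all, 25 peaks of 18 genes were called in at least 1 comparison and 66 tested members in none. The peak lists come from the same libraries as the counts. A peak listed only where it is high was in part chosen for that, so its call is no independent support. In the 24 h list alone stood 1 called peak each of Lama5, Lamb2 and Itgb1, and in the 72 h list alone 1 of Lama4. The other called Lama5 peaks and 1 each of Itga3 and Itgb1 stood in more than 1 eribulin list and not in the untreated list. In the untreated list alone stood 1 called peak each of Itgb7, Itgav, Itgb6 and Itgb5.

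A call was easily lost. DESeq2 on the same counts called 1 member over the mean, in Lamc1, and none in the other comparisons. DESeq2's own filter on low counts left an adjusted p for 66 members over the mean and 40 at 24 h. It left 42 at 48 h, 56 at 72 h and 31 between 72 and 24 h. Of all peaks so kept it called 0.97% at 24 h, 0.784% at 48 h and 0.915% at 72 h. It called 1.63% of them over the mean and 0.0781% between 72 and 24 h. An unadjusted p below 0.05 in DESeq2 was reached by 7 members at 24 h (7.69%, against 8.55% of all peaks) and 7 at 48 h (7.69%, against 8.79%). It was reached by 11 at 72 h (12.1%, against 11.8%) and 3 between 72 and 24 h (3.30%, against 6.28%). These shares too lay near or below those of all peaks. Without the deeper untreated library, replicate 2, edgeR called 2 members over the mean. Libraries were left out 1 at a time, so each library named as missing stands for a fit of its own.

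The groups of the family had different medians, which carry no test. The 22 tested peaks of collagen and laminin binding integrins had a median log2 fold change of 0.14 over the mean of the 3 times and 0.32 at 24 h. The 34 of RGD binding integrins had -0.16 over the mean and -0.33 at 72 h, and the 30 of laminin chains had -0.031 over the mean. The called share over the mean differed too, at 30% of laminin chain peaks, with 3 of these calls in Lama5. It was 4.55% for collagen and laminin binding and 5.88% for RGD binding integrins, against 16.8% of all tested peaks. Of 5 tested peaks of leukocyte integrins 1 was called. These shares were not tested against each other. Over all tested peaks the medians of these comparisons lay between -0.0076 and 0.0048. For all 91 members they were 0.11 at 24 h, -0.15 at 48 h, -0.15 at 72 h and -0.036 over the mean. Between 72 and 24 h the members' median was -0.23, with quartiles of -0.55 and 0.0087. Over all tested peaks it was -0.0051, with quartiles of -0.38 and 0.36.

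**Figure D1:**
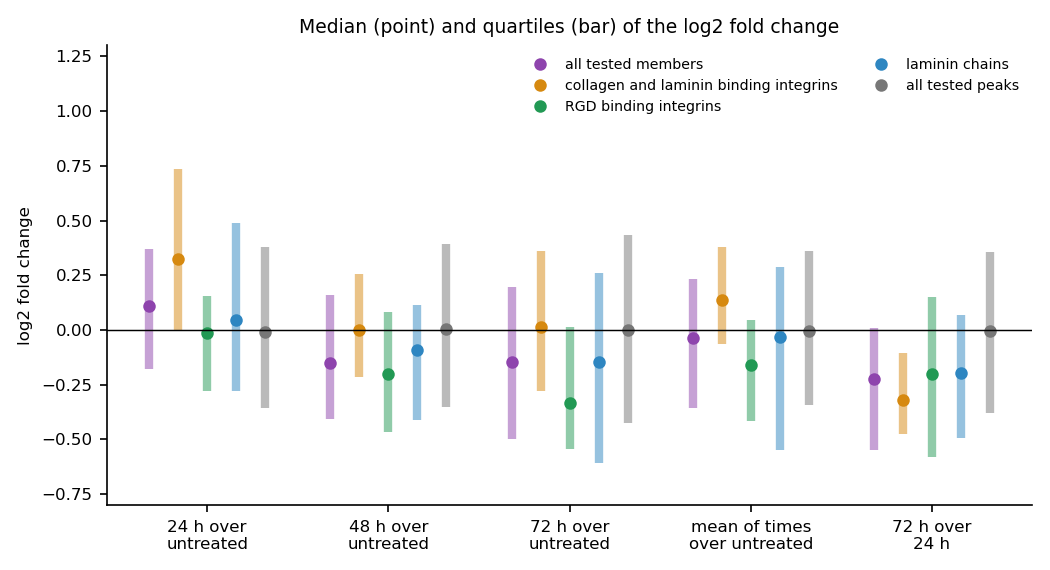
Median (point) and quartiles (bar) of the log2 fold change in ZEB1 signal (vertical axis) over the tested peaks of each group, for the 5 comparisons along the horizontal axis. The collagen and laminin binding integrins stand highest at 24 h, with a median of 0.32, and the members' median between 72 and 24 h is -0.23.

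Lama5 encodes the alpha5 chain, a main laminin alpha chain of epithelial basement membranes. It had 5 peaks along its first 11.02 kb, and 3 of the 4 tested rose over the mean of the 3 times. The strongest call lay inside the gene at chr2:180214480-180215192. It held 2.75 and 18.3 CPM in untreated cells. With eribulin it held 23.9 and 32.7 CPM at 24 h, 34.4 and 47.9 CPM at 48 h and 46.2 and 37.6 CPM at 72 h. All eribulin libraries lay above both untreated libraries, which differed from each other. The rise was 1.51 on the log2 scale over the mean (SE 0.362, adjusted p = 0.00169). It was called at 48 h (1.64, adjusted p = 0.00285) and 72 h (1.72, adjusted p = 0.00511) and not at 24 h (log2 fold change 1.16). The peak stood in the 48 and 72 h lists alone, so it may be in the consensus table only because it was high there.

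A peak at the start of Lama5, chr2:180225390-180225942, is the one beside the 2 E-boxes shown above. Signal was 13.8 and 16.8 CPM in untreated cells. Under eribulin it was 32.4 and 23.2 CPM at 24 h, 34.4 and 34.2 CPM at 48 h and 30.05 and 31.4 CPM at 72 h. Here too the groups did not overlap (log2 fold change 0.95, SE 0.346, adjusted p = 0.047 over the mean). The rise was also called at 48 h (1.115, adjusted p = 0.0438). This peak stood in the 24 and 48 h lists alone, so the same limit holds for its calls. A weaker Lama5 peak, chr2:180220281-180220496, lay 5.47 kb downstream of the start. The untreated libraries gave 2.75 and 1.53 CPM. Those of eribulin cells gave 29 and 16.4 CPM at 24 h, 13.2 and 6.84 CPM at 48 h and 18.5 and 9.41 CPM at 72 h. That is 54 counts in the 6 eribulin libraries and 1 in each untreated library. The ratio of the summed counts was 8.06, with an exact 95% interval of 2.13 to 68.2 that covers counting error only. The calls over the mean (adjusted p = 0.00492), at 24 h (adjusted p = 0.00107) and at 72 h (adjusted p = 0.0337) rest on those 2 untreated counts. The peak stood in the 24 h list alone, so it may be in the consensus table only because it was high there.

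The fourth tested Lama5 peak, chr2:180215985-180216220, had 30.8 to 41.6 CPM in the 6 eribulin libraries, against 27.5 and 27.5 CPM in untreated cells, and did not pass the test (log2 fold change 0.39, SE 0.285). The remaining Lama5 peak, 2.04 kb from the start, was untested at a mean of 5.76 CPM. DESeq2 called neither the inner peak (adjusted p = 0.124) nor the start peak (adjusted p = 0.383). It gave the weak peak no adjusted p. In edgeR the weak peak's call at 72 h was lost without 72 h replicate 1 or untreated replicate 1 or 2. The inner peak was not called over the mean without untreated replicate 1 (adjusted p = 0.0885). Its call at 48 h was lost without untreated replicate 1 (adjusted p = 0.0787), and that at 72 h without 72 h replicate 1 or untreated replicate 1 (adjusted p between 0.0774 and 0.104). Each of these calls thus needed the first untreated library. The weak peak lost its call over the mean without untreated replicate 2 (adjusted p = 0.22) and that at 24 h without untreated replicate 2 (adjusted p = 0.111). The start peak was not called over the mean without 24 h replicate 1 or any library of the 48 h, 72 h or untreated groups. Its call at 48 h was lost without 48 h replicate 1 or 2 or untreated replicate 1 or 2.

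**Figure D2:**
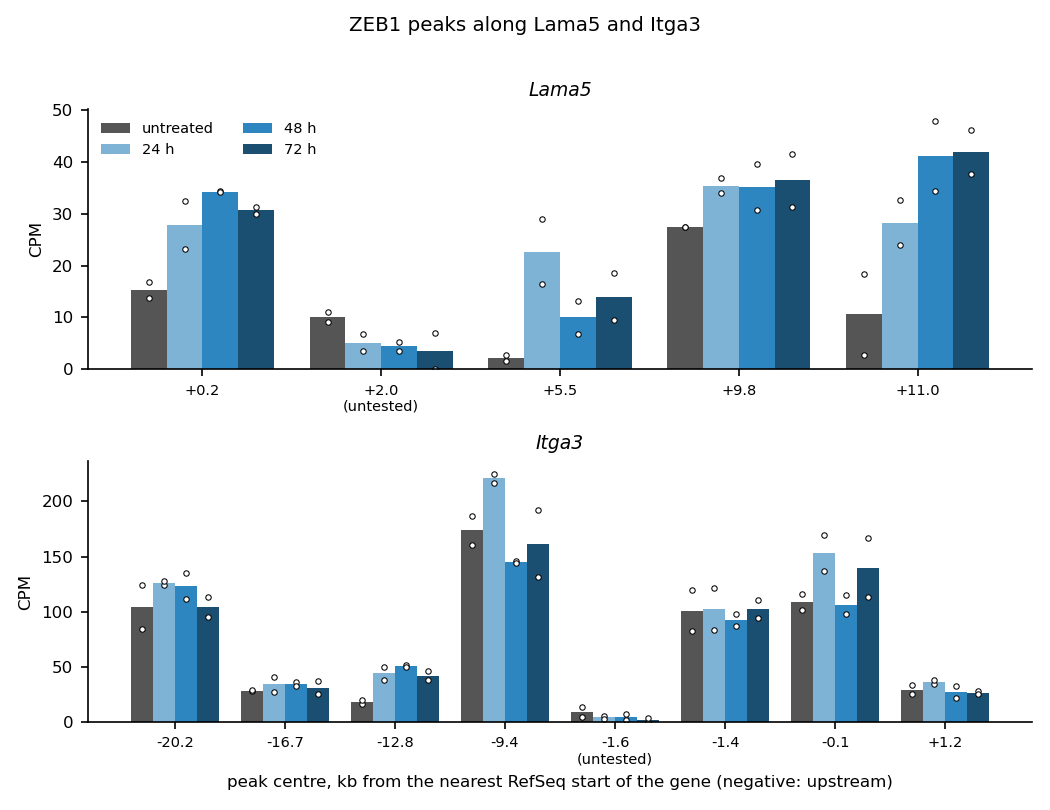
ZEB1 signal in CPM (vertical axis) at each peak of Lama5 (top) and Itga3 (bottom), placed in order of the distance of its centre from the nearest RefSeq start (horizontal axis, not to scale); bars are means of 2 libraries and points the libraries, in the order untreated, 24, 48 and 72 h. The Lama5 peaks at 0.19, 5.47, 9.76 and 11.02 kb and the Itga3 peak 12.75 kb upstream are higher in all 6 eribulin libraries than in both untreated libraries. Of these the Lama5 peak at 9.76 kb was not called. The strongest Itga3 peaks overlap between the groups.

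Lamc1 encodes the gamma1 chain, which most laminins share. Of its 6 tested peaks 1 fell, with the smallest adjusted p of all members, at chr1:153300348-153300778 inside the gene. Untreated PB3 cells showed 118 and 144 CPM. Eribulin cells showed 80.1 and 69.6 CPM at 24 h, 70.1 and 59.9 CPM at 48 h and 64.7 and 62.7 CPM at 72 h. Every eribulin library lay below both untreated libraries (log2 fold change -0.99, SE 0.163, adjusted p = 3.29e-06 over the mean). The fall was called at 24 h (-0.85, adjusted p = 0.000903), 48 h (-1.03, adjusted p = 8.66e-05) and 72 h (-1.07, adjusted p = 0.000667). It was the member that DESeq2 called (adjusted p = 0.0246 over the mean). Without untreated replicate 2 the edgeR calls were lost, with adjusted p = 0.169 at 24 h, 0.0696 at 48 h, 0.0756 at 72 h and 0.0558 over the mean.

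The peaks beside it in Lamc1 were not called. The nearest, 483 bases away at chr1:153299328-153299864, had 64.8 to 92.5 CPM in the 6 eribulin libraries, against 85.3 and 59.6 CPM in untreated cells. Its values overlapped between the groups (log2 fold change 0.065, SE 0.195). So did those of the peak on the other side, 3679 bases away (log2 fold change -0.21, SE 0.179), and of the strong peak at the gene's boundary, chr1:153332707-153333936 (log2 fold change -0.047, SE 0.146). Whether the neighbours differ from the falling peak was not tested.

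Lama3 and Lamb3 encode an alpha and a beta chain of the laminin that anchors epithelial cells through hemidesmosomes. Each had 2 tested peaks, and 1 of the Lama3 peaks fell. It lay inside the gene at chr18:12456646-12456932. Untreated cells had 35.8 and 55 CPM there. The eribulin values were 32.4 and 32.7 CPM at 24 h, 22.5 and 35.9 CPM at 48 h and 20.8 and 22 CPM at 72 h. Both 72 h libraries lay below all others. It fell over the mean (log2 fold change -0.83, SE 0.262, adjusted p = 0.0191) and at 72 h (-1.17, adjusted p = 0.03). The other Lama3 peak did not pass the test (log2 fold change 0.19, SE 0.313). DESeq2 did not call the fall. In edgeR the call over the mean was lost without 48 h replicate 1 or untreated replicate 2 (adjusted p between 0.0542 and 0.652) and that at 72 h without 72 h replicate 1 or 2 or untreated replicate 2 (adjusted p between 0.0999 and 0.45). Neither Lamb3 peak was called. The stronger one, chr1:193298131-193298610, had 56.5 to 87.2 CPM in the 6 eribulin libraries, against 96.3 and 73.4 CPM in untreated cells (log2 fold change -0.25, SE 0.189).

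Lamb2 encodes a beta chain of kidney, nerve and muscle laminins and had a single weak peak 979 bases from its boundary, chr9:108478770-108478966. It held 8.25 and 3.06 CPM in untreated cells. With eribulin it held 18.8 and 19.1 CPM at 24 h, 13.2 and 8.55 CPM at 48 h and 25.4 and 12.5 CPM at 72 h. All eribulin libraries lay above both untreated ones (log2 fold change 1.68, SE 0.576, adjusted p = 0.0324 over the mean). The rise was also called at 24 h (1.90, adjusted p = 0.0325) and 72 h (1.97, adjusted p = 0.0428). The untreated libraries held 3 and 2 counts, and the ratio of summed counts was 3.28 (exact 95% interval 1.32 to 10.5, counting error only). In Lama2, the alpha chain of muscle and nerve, 1 of 4 tested peaks fell, chr10:27010365-27010762. Signal was 49.5 and 59.6 CPM in untreated cells. Under eribulin it was 44.3 and 39.6 CPM at 24 h, 33.1 and 41.1 CPM at 48 h and 16.2 and 25.1 CPM at 72 h. The 72 h libraries were the lowest. The fall was called over the mean (log2 fold change -0.84, SE 0.245, adjusted p = 0.0103) and at 72 h (-1.48, adjusted p = 0.00424).

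Lama4, the alpha chain of vessel walls, had 1 higher peak at 48 h and another at 72 h. The peak chr10:38994703-38995050 had 39.7 and 42.8 CPM at 48 h, against 19.3 and 19.9 CPM in untreated cells (log2 fold change 1.05, SE 0.346, adjusted p = 0.0338). The peak chr10:39044654-39044845 had 37 and 37.6 CPM at 72 h, against 5.5 and 19.9 CPM in untreated cells (log2 fold change 1.33, SE 0.443, adjusted p = 0.0348). Between 72 and 24 h neither passed the test (adjusted p = 0.934 and 0.0759). The 4 peaks of Lamb1, a widespread beta chain, had log2 fold changes between -0.015 and 0.16 over the mean. The tested peak of Lamc3, chr2:31935002-31935394, had 44.5 to 100.4 CPM in the 6 eribulin libraries, against 66 and 48.9 CPM in untreated cells (log2 fold change 0.32, SE 0.212).

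These calls also rested on single libraries. Lamb2 was not called over the mean without 48 h replicate 1, 72 h replicate 1 or untreated replicate 2. Its call at 24 h was lost without 24 h replicate 1 or 2 or untreated replicate 2. That at 72 h was lost without 72 h replicate 1 or untreated replicate 2. Lama2 lost its call over the mean without untreated replicate 2 (adjusted p = 0.349) and that at 72 h without 72 h replicate 1 or untreated replicate 2 (adjusted p between 0.113 and 0.151). Untreated replicate 2 was needed for each of these Lamb2 and Lama2 calls. The Lama4 call at 48 h was lost without 48 h replicate 1 or 2 or untreated replicate 1 or 2 (adjusted p between 0.0959 and 0.26). The Lama4 call at 72 h was lost without 72 h replicate 1 or 2 or untreated replicate 1 (adjusted p between 0.107 and 0.217).

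**Figure D3:**
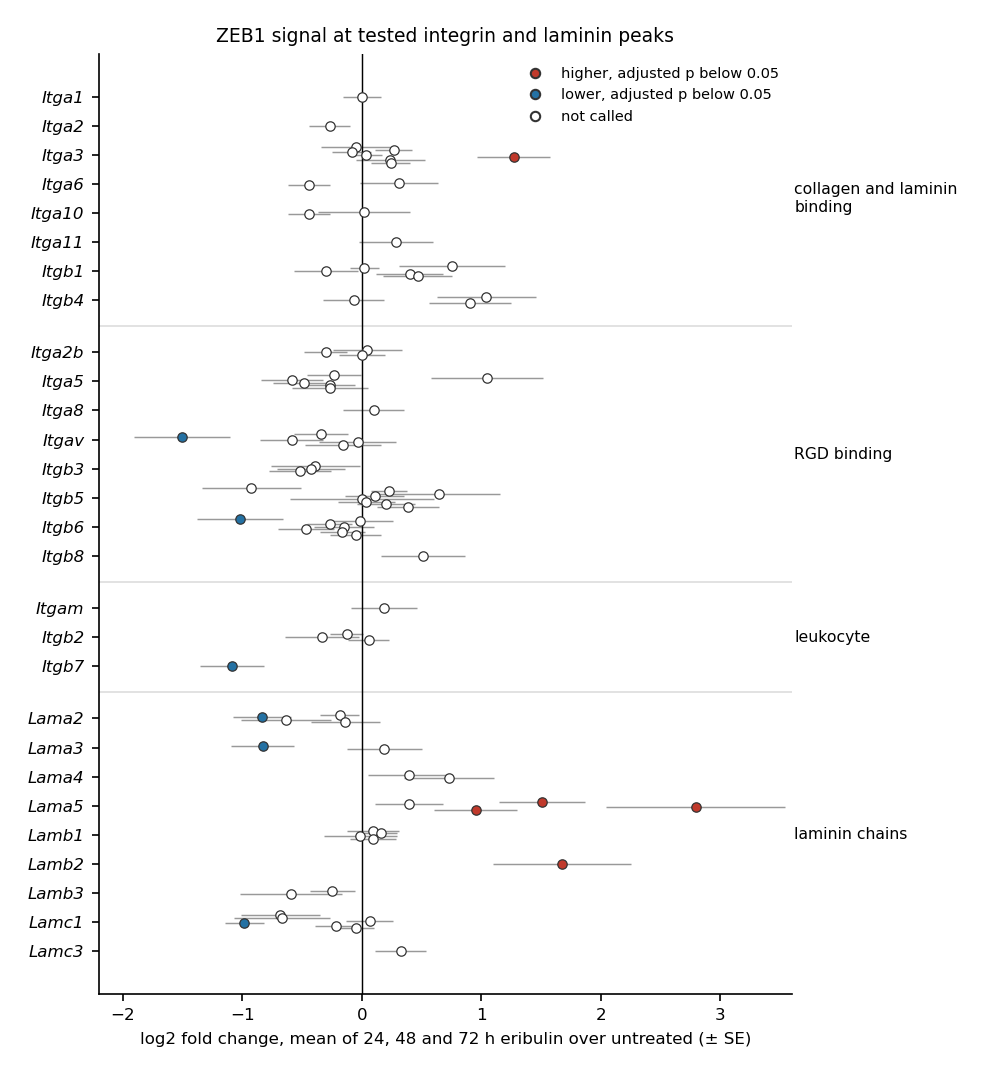
Log2 fold change of ZEB1 signal, mean of 24, 48 and 72 h eribulin over untreated (horizontal axis, bars are SE of the fit), for 87 of the 91 tested peaks by gene (vertical axis). Red points are the 5 peaks called higher, in Lama5, Lamb2 and Itga3, blue points 6 called lower, and white points were not called. The rightmost point, the weak Lama5 peak, rests on 1 count in each untreated library, so its size is not a bound.

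Among the receptors for laminin and collagen, Itga3, whose product pairs with Itgb1 as a laminin receptor, had 1 called peak of 7 tested. This was chr11:95089192-95089745, 12.75 kb upstream of the start. The untreated libraries gave 16.5 and 19.9 CPM. Those of eribulin cells gave 49.5 and 38.2 CPM at 24 h, 51.6 and 49.6 CPM at 48 h and 46.2 and 37.6 CPM at 72 h. The eribulin libraries all lay above both untreated ones (log2 fold change 1.27, SE 0.305, adjusted p = 0.00167 over the mean). The rise was called at 24 h (1.20, adjusted p = 0.0142), 48 h (1.43, adjusted p = 0.00189) and 72 h (1.18, adjusted p = 0.036). It and the Lamc1 peak were the 2 members called at all 3 times. It stood in the 3 eribulin peak lists and not in the untreated one. The lists come from the same libraries as the counts, so this adds no support of its own. The peak may be in the consensus table only because it was high after eribulin, so its calls are no independent support either. The other 6 tested peaks of Itga3 had log2 fold changes between -0.085 and 0.27 over the mean. Among them was the promoter peak with the E-box (log2 fold change 0.27, SE 0.155).

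DESeq2 did not call the Itga3 rise (adjusted p = 0.133 over the mean). In edgeR it was not called over the mean without untreated replicate 2 (adjusted p = 0.0866). The call at 24 h was lost without 24 h replicate 1 or untreated replicate 1 or 2 (adjusted p between 0.0727 and 0.151) and that at 48 h without untreated replicate 2 (adjusted p = 0.0666). At 72 h it was lost without 72 h replicate 1 or 2 or untreated replicate 1 or 2 (adjusted p between 0.0689 and 0.285).

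At 24 h 4 of the 22 tested peaks of these receptors were higher, 2 of them in Itgb1, and none was lower. That is 18.2% called, where 11% of all tested peaks were called, 6.44% higher and 4.61% lower. In the other comparisons with untreated cells their called share lay below that of all peaks. It was 4.55% over the mean, against 16.8%, and 9.09% at both 48 and 72 h, against 11.5% and 12.6%. The outer Itgb1 peak lay 32.75 kb upstream at chr8:128652780-128653036. Untreated PB3 cells showed 8.25 and 12.2 CPM. Eribulin cells showed 40.9 and 27.3 CPM at 24 h, 14.6 and 10.3 CPM at 48 h and 13.9 and 15.7 CPM at 72 h. The 24 h libraries stood clear of all others. The log2 fold change was 1.61 at 24 h (adjusted p = 0.00703), 0.23 at 48 h and 0.43 at 72 h, and 72 h against 24 h gave adjusted p = 0.0952. Inside Itgb1, chr8:128703651-128703960 had 52.9 and 47.7 CPM at 24 h, against 19.3 and 30.6 CPM in untreated cells (log2 fold change 0.91, SE 0.308, adjusted p = 0.0403). This peak stood in every eribulin list and not in the untreated list, so the limit given for the called Itga3 peak holds for it too. A peak between Itga1 and Itga2, both collagen receptor subunits, lay nearest to the end of Itga1 at chr13:114945315-114946109. Untreated cells had 118 and 131 CPM there. The eribulin values were 177 and 186 CPM at 24 h, 96.6 and 135 CPM at 48 h and 97.1 and 100.4 CPM at 72 h. It was higher at 24 h (0.52, adjusted p = 0.022) and not called at 48 h (log2 fold change -0.16) or 72 h (-0.36).

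Lower calls among these receptors came at 48 and 72 h. Inside Itga6, the laminin receptor subunit that pairs with Itgb4, chr2:71801721-71802495 had 67 and 53.3 CPM at 72 h, against 85.3 and 109 CPM in untreated cells (log2 fold change -0.71, SE 0.248, adjusted p = 0.0434). At the boundary of Itga10, a collagen receptor of cartilage, chr3:96663481-96664007 had 59.5 and 61.6 CPM at 48 h, against 88 and 102 CPM in untreated cells (log2 fold change -0.68, SE 0.215, adjusted p = 0.0244). The 3 tested peaks of Itgb4, the hemidesmosome beta subunit, passed no test. The peak at its boundary, chr11:115974996-115975149, lay at 22 to 41.1 CPM in the 6 eribulin libraries, against 13.8 and 18.3 CPM in untreated cells (log2 fold change 0.90, SE 0.342, adjusted p = 0.0555). The strongest Itgb4 peak was chr11:115971023-115971356 (log2 fold change -0.07, SE 0.256). Itga2 (chr13:114933523-114934154, log2 fold change -0.27, SE 0.174) and Itga11 (chr9:62675955-62676386, log2 fold change 0.29, SE 0.313), collagen receptors with 1 peak each, were not called.

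Each of these calls at a single time was lost without at least 1 library. The outer Itgb1 peak was not called without 24 h replicate 1 or untreated replicate 1 or 2 (adjusted p between 0.0548 and 0.117). The inner Itgb1 peak was not called without 24 h replicate 1 or 2 or untreated replicate 1 or 2 (adjusted p between 0.109 and 0.221). Itga1 lost its call at 24 h without 24 h replicate 1 or 2 or untreated replicate 1 or 2 (adjusted p between 0.063 and 0.158). The 3 peaks needed both untreated libraries. For Itga6 the call at 72 h was lost without 72 h replicate 1 or 2 or untreated replicate 2 (adjusted p between 0.108 and 0.436). For Itga10 that at 48 h was lost without 48 h replicate 1 or 2 or untreated replicate 2 (adjusted p between 0.0629 and 0.346).

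**Figure D4:**
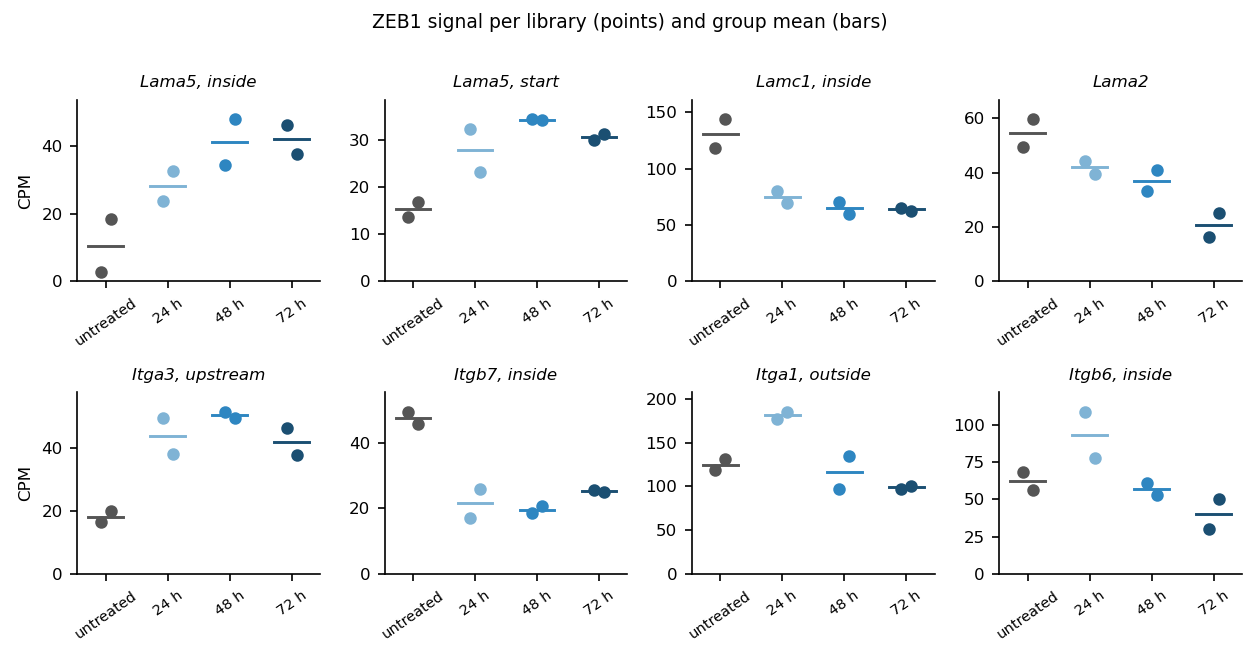
ZEB1 signal in CPM (vertical axes, from 0) in each library (points, 2 per group) and the group mean (bars) at 8 called peaks, with untreated cells and 24, 48 and 72 h of eribulin along the horizontal axes. The Lama5 and Itga3 peaks are higher and the Lamc1 and Itgb7 peaks lower in every eribulin library than in both untreated libraries, and the Itga1 and Itgb6 peaks are highest at 24 h.

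The RGD binding integrins hold cells to fibronectin and vitronectin and, with alphav, release TGF-beta from its latent form. Of their 34 tested peaks 2 fell and none rose over the mean (5.88% called, against 16.8% of all tested peaks). One lay upstream of Itgav, the alpha subunit that Itgb3, Itgb5, Itgb6 and Itgb8 share, at chr2:83714871-83715028. It held 33 and 24.5 CPM in untreated cells. With eribulin it held 18.8 and 6.82 CPM at 24 h, 5.29 and 13.7 CPM at 48 h and 11.6 and 3.14 CPM at 72 h. All eribulin libraries lay below both untreated ones (log2 fold change -1.51, SE 0.403, adjusted p = 0.00485 over the mean). The fall was also called at 48 h (-1.60, adjusted p = 0.0201) and 72 h (-1.76, adjusted p = 0.0367). The other 4 Itgav peaks had log2 fold changes between -0.59 and -0.036 and were not called. Itgb6, the epithelial partner that releases TGF-beta, had 7 tested peaks with changes between -1.02 and -0.016. The lowest of these, chr2:60583474-60583767, had 3.42 to 24.6 CPM in the 6 eribulin libraries, against 27.5 and 30.6 CPM in untreated cells (log2 fold change -1.02, SE 0.359, adjusted p = 0.0361). A further Itgb6 peak, chr2:60694650-60695077, was called at 72 h with 30.05 and 28.2 CPM at 72 h, against 74.3 and 47.4 CPM in untreated cells (log2 fold change -0.96, SE 0.344, adjusted p = 0.0498).

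Itgb5, a partner of alphav, had 1 call among 8 tested peaks. At chr16:33833865-33834037 the values were 3.41 and 9.55 CPM at 24 h, against 22 and 21.4 CPM in untreated cells (log2 fold change -1.63, SE 0.55, adjusted p = 0.0381). Its strongest peak, chr16:33836574-33837410, had 108 to 152 CPM in the 6 eribulin libraries, against 116 and 115 CPM in untreated cells (log2 fold change 0.23, SE 0.152). Itga5 encodes the fibronectin receptor subunit whose upstream bases are printed above. At its start, chr15:103366548-103366848 was higher at 72 h with 27.7 and 25.1 CPM at 72 h, against 13.8 and 6.11 CPM in untreated cells (log2 fold change 1.57, SE 0.549, adjusted p = 0.0436). The log2 fold changes there were 0.35 at 24 h and 1.22 at 48 h, neither called. The 5 other Itga5 peaks had changes between -0.59 and -0.23 over the mean.

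No peak of the remaining RGD binding genes was called. The strongest of 3 tested Itgb3 peaks was chr11:104673557-104673873 (log2 fold change -0.51, SE 0.259). For Itga2b, the platelet subunit with 3 tested peaks, it was chr11:102465957-102466499 (log2 fold change -0.30, SE 0.176). The single Itga8 peak was chr2:12077427-12077750 (log2 fold change 0.10, SE 0.256). Itgb8, whose E-box is shown above, had a single peak at its start. This peak had 18.5 to 30.7 CPM in the 6 eribulin libraries, against 13.8 and 19.9 CPM in untreated cells (log2 fold change 0.51, SE 0.35).

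The calls of RGD binding integrins were lost without at least 1 library. The Itgav call at 48 h was lost without 48 h replicate 1 or untreated replicate 1 or 2. That at 72 h was lost without 72 h replicate 1 or 2 or untreated replicate 1 or 2. Itgav was not called over the mean without untreated replicate 1 or 2 (adjusted p between 0.0634 and 0.0681). The first Itgb6 peak was not called over the mean without 24 h replicate 1, 48 h replicate 2, 72 h replicate 2 or untreated replicate 1 or 2 (adjusted p between 0.0639 and 0.363). The second Itgb6 peak lost its call at 72 h without 24 h replicate 1, 72 h replicate 1 or 2 or untreated replicate 1 (adjusted p between 0.0506 and 0.276). At least 1 untreated library was needed for each of the 3. Itgb5 lost its call at 24 h without 24 h replicate 1 or 2 or untreated replicate 1 or 2 (adjusted p between 0.0502 and 0.246). For Itga5 the call at 72 h was lost without 72 h replicate 1 or 2 or untreated replicate 2 (adjusted p between 0.0999 and 0.452).

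Of the 10 genes grouped here as leukocyte integrins, Itga4 and Itga9 among them, 3 had a member peak. This is a peak in DNA and no sign of leukocytes. Itgb7, the beta subunit of gut homing lymphocytes, had a peak inside the gene at chr15:102230664-102231171. Signal was 49.5 and 45.9 CPM in untreated cells. Under eribulin it was 17.1 and 25.9 CPM at 24 h, 18.5 and 20.5 CPM at 48 h and 25.4 and 25.1 CPM at 72 h. Every eribulin library held less than both untreated libraries (log2 fold change -1.09, SE 0.268, adjusted p = 0.00222 over the mean). The fall was called at 24 h (-1.09, adjusted p = 0.0158) and 48 h (-1.27, adjusted p = 0.00534) and not at 72 h (-0.89, adjusted p = 0.0917). Over the mean the call was lost without untreated replicate 2 (adjusted p = 0.0859). That at 24 h was lost without 24 h replicate 1 or untreated replicate 1 or 2 (adjusted p between 0.064 and 0.153) and that at 48 h without 48 h replicate 1 or untreated replicate 2 (adjusted p between 0.0696 and 0.082). Neither Itgb2 nor Itgam, which pair in macrophages and neutrophils, had a called peak. The strongest Itgb2 peak, chr10:77531107-77532158, had 111 to 172 CPM in the 6 eribulin libraries, against 154 and 151 CPM in untreated cells (log2 fold change -0.13, SE 0.139). The Itgam peak, chr7:128119108-128119669, had 15.4 to 58.7 CPM in the 6 eribulin libraries, against 35.8 and 32.1 CPM in untreated cells (log2 fold change 0.19, SE 0.273).

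Between 72 and 24 h of eribulin 3 members fell, and at each of them both 24 h libraries lay above both 72 h libraries. The Itga1 peak had 97.1 and 100.4 CPM at 72 h, against 177 and 186 CPM at 24 h (log2 fold change -0.88, SE 0.187, adjusted p = 0.00192). An Itgb6 peak, chr2:60700802-60701305, had 30.05 and 50.2 CPM at 72 h, against 109 and 77.8 CPM at 24 h (log2 fold change -1.24, SE 0.276, adjusted p = 0.00293). A Lamb1 peak, chr12:31292428-31292772, had 25.4 and 6.27 CPM at 72 h, against 32.4 and 50.5 CPM at 24 h (log2 fold change -1.28, SE 0.405, adjusted p = 0.0453). Untreated cells lay between the times for Itga1 (118 and 131 CPM) and Itgb6 (68.8 and 56.6 CPM) and overlapped the 72 h libraries for Lamb1 (22 and 29 CPM). Itga1 was not called without 72 h replicate 1 (adjusted p = 0.0571). Itgb6 was not called without 24 h replicate 1 or 72 h replicate 1 (adjusted p between 0.0783 and 0.195), and Lamb1 without 24 h replicate 2 or 72 h replicate 2 (adjusted p between 0.355 and 0.422). DESeq2 called no member here and gave the Lamb1 peak no adjusted p. At an unadjusted p below 0.05 edgeR had 3 members higher and 15 lower at 72 h than at 24 h (3.30% and 16.5%), where 10.8% of all tested peaks were higher and 10.6% lower; this split carries no test.

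Genes that work with integrins and laminins were read in the same fit, over the mean of the 3 times. Focal adhesion and integrin signalling genes had a peak at 48 of 56 genes. Of their 231 tested peaks 13 rose and 26 fell (16.9% called, against 16.8% of all tested peaks), with a median log2 fold change of -0.075. The 3 calls with the smallest adjusted p lay inside tensin genes, whose products tie integrin tails to actin. The Tns3 peak, chr11:8463086-8463675, had 74.1 to 115 CPM in eribulin cells, against 35.8 and 18.3 CPM in untreated cells (log2 fold change 1.85, SE 0.255, adjusted p = 2.41e-08). Falls were called in Tns4 (log2 fold change -0.58, SE 0.107, adjusted p = 4.13e-05) and Tns1 (log2 fold change -1.04, SE 0.205, adjusted p = 0.000108). Tns3 moved both ways, as a second peak in it, chr11:8451417-8452077, fell (log2 fold change -0.90, SE 0.18, adjusted p = 0.000126). Without untreated replicate 2 the list had 9 calls. With DESeq2 it had 2, the rising Tns3 peak and the named Tns4 peak (adjusted p = 9.78e-04 and 0.0416).

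Basement membrane components and laminin receptors had 5 peaks higher and 5 lower of 75 tested (13.3% called, against the same 16.8%; median log2 fold change -0.052). The smallest adjusted p belonged to a fall 44.98 kb from Col18a1, a collagen of vessel and epithelial basement membranes. This peak, chr10:77211109-77211911, had 71.9 to 113 CPM in eribulin cells, against 173 and 177 CPM in untreated cells (log2 fold change -1.01, SE 0.144, adjusted p = 6.72e-08). A rise lay inside Hspg2, which encodes perlecan (log2 fold change 1.26, SE 0.256, adjusted p = 0.000174), and a fall inside the type IV collagen gene Col4a2 (log2 fold change -0.87, SE 0.221, adjusted p = 0.00281). The Col18a1 call was also made without untreated replicate 2 (adjusted p = 0.00221) and by DESeq2 (0.00305). Those of Hspg2 (0.177) and Col4a2 (0.067) were lost without that library.

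The list drawn up for hemidesmosomes held Plec, Dst, Col17a1, Cd151, Krt5, Krt14 and Kank2. Cd151 and Kank2 were also in the focal adhesion list. Its genes had 4 peaks higher and none lower of 28 tested (14.3% called, against 16.8% of all tested peaks). Their median log2 fold change was 0.20, and 5 of 7 genes had a peak. The calls lay in Dst and Plec, whose plakin products link integrins to the cytoskeleton. The first Dst peak, chr1:34122963-34123594, had 90.04 to 125 CPM in eribulin cells, against 68.8 and 48.9 CPM in untreated cells (log2 fold change 0.85, SE 0.192, adjusted p = 0.000725). The first Plec peak, chr15:76197383-76199218, had 156 to 223 CPM in eribulin cells, against 126 and 121 CPM in untreated cells (log2 fold change 0.57, SE 0.144, adjusted p = 0.00255). Both genes had a second rise, in Dst (log2 fold change 1.68, SE 0.47, adjusted p = 0.00734) and in Plec (log2 fold change 0.54, SE 0.194, adjusted p = 0.0424). None of the 4 was called by DESeq2, which gave the second Dst peak no adjusted p. Nor was any called in edgeR without untreated replicate 2, where their adjusted p lay between 0.161 and 0.281.

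Genes of other integrin ligands in the matrix had 2 peaks higher and 5 lower of 52 tested (13.5% called, against 16.8%; median log2 fold change -0.17). The called share of these 4 lists thus lay near or below that of all peaks. A peak near the thrombospondin gene Thbs2, chr17:14730740-14730937, had 13.6 to 23.1 CPM in eribulin cells, against 2.75 and 3.06 CPM in untreated cells (adjusted p = 0.00123). A fall was called near Ccn1 (log2 fold change -0.76, SE 0.214, adjusted p = 0.00734), which encodes a matricellular protein. A rise was called inside Ltbp1, whose product binds latent TGF-beta (log2 fold change 1.04, SE 0.315, adjusted p = 0.0138). A second peak inside Ltbp1, chr17:75110276-75111250, was stronger and fell (log2 fold change -0.38, SE 0.135, adjusted p = 0.0378). Without untreated replicate 2 all of these calls were lost, those of both Ltbp1 peaks included.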

How the data were processed

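ZEB1 CUT&RUN was measured in 8 libraries, pairs of PB3 cells without the drug and after 24, 48 or 72 h in it, with 1 IgG library. The deposited table holds raw integer counts per consensus peak, not scaled by the authors, and all of its columns matched a sample. For each group the authors deposited a peak list, from which the fold over IgG (a ratio) and −log10 of the q-value were used. Per the submitters' processing notes, the tools were Bowtie2 2.2.6, MACS2 2.1.1, featureCounts, Picard, bedtools 2.30.0, deepTools, cutadapt 2.4 and bcl2fastq 2.20.0.422. The build was GRCm38 (mm10). How replicate 2 entered the lists, and the tools' settings, are not given in the sources used here.

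Counts were compared by the robust quasi-likelihood F-test of edgeR 4.0.16 in R 4.3.3, after filterByExpr by group and TMM. It had 1 mean per group, 4 residual degrees of freedom and 21192 of 23623 peaks. Adjustment was by Benjamini and Hochberg over these, with a threshold of 0.05. The steps were tested on simulated data. Alternatives were DESeq2 1.42.0 (Wald test, same peaks), other scalings, no filter and thinning to the smallest total of 326944. Further ones were summed pairs, a replicate block and leaving out each library. DESeq2's own filter on low counts left part of the peaks without an adjusted p. CPM here are counts scaled to the TMM-adjusted total in tested peaks. SE is the size of the fitted log2 fold change over the square root of F.

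Library pairs of a group had a chi-square per degree of freedom of 0.931 to 1.06, where 1 is counting error, so intervals and p-values hold little beyond it. Deviations of same-numbered replicates correlated between groups at -0.029 to 0.0012, so the numbers were not taken as pairs.

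Genes came from the RefSeq table of GRCm38.p6. Itgb1bp genes, Itgb3bp and Itgbl1 were left out. No genome sequence was used here, so only RefSeq start windows were searched for the E-box. The members and gene lists were chosen with earlier results of these data known. Results at 1 gene are not reported here. Named peaks are all other called members, for each other gene its strongest peak, and for each related list the 3 calls with the smallest adjusted p. Other peaks of named genes, the other strong peaks, the boundary peak of Itgb4 and the second peaks of Dst, Plec, Tns3 and Ltbp1 were chosen after their values were seen.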

Additional observations from a re-analysis of the deposited data

Results flagged for a closer look

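The comparison of 72 h with 24 h of eribulin gave 3 peaks at which the 2 times differed by a test of the difference itself (edgeR's quasi-likelihood test, adjusted over all tested peaks), all lower at 72 h: the peak between Itga1 and Itga2 (log2 fold change -0.88, adjusted p = 0.00192), a peak inside Itgb6 (-1.24, adjusted p = 0.00293) and a peak inside Lamb1 (-1.28, adjusted p = 0.0453). Both 24 h libraries lay above both 72 h libraries at each.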

How the results depend on the processing

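The counts of called members changed most with the tool, the depth and single libraries. DESeq2 called 1 over the mean of the 3 times, against 13 in edgeR. At 24 h, 48 h, 72 h and between 72 and 24 h it called 0, against 9, 9, 13 and 3. Its dispersion is estimated otherwise, its filter left part of the members without an adjusted p, and the cause was not tested. With every library thinned to 326944 counts the calls were 5, 4, 2, 6 and 1, which shows how far they rest on depth. With pairs summed, the calls at 72 h were 8. Leaving out 1 library at a time gave 2 to 12 calls over the mean, 1 to 10 at 24 h, 1 to 9 at 48 h, 1 to 14 at 72 h and 1 to 3 between 72 and 24 h. The lowest counts came without untreated replicate 2 at 24 h (1), at 48 h (1) and over the mean (2), and without 72 h replicate 1 for 72 h (1) and between the times (1). Without untreated replicate 1 they were 7, 3, 5 and 7 against untreated cells, and without untreated replicate 2 the count at 72 h was 4. Without 24 h replicate 1 the 24 h count was 4, without either 48 h library the 48 h count was 5, and without 72 h replicate 2 the 72 h count was 5. Of 47 calls of single peaks, none changed direction under any alternative, and none was kept in every fit that left out 1 library. With the replicate block, which the numbers do not support as pairs, the calls were 11, 9, 8, 11 and 2, and 41 of the 47 were kept. Other size factors kept 47, no TMM 46 and no filter 43. Members within 10 kb gave 11, 6, 8, 12 and 2 calls, and assignment by the nearest boundary alone 12, 9, 9, 11 and 3.

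In the deposited lists a −log10 q of at least 5 left 64 members untreated, 55 at 24 h, 49 at 48 h and 32 at 72 h. Where a list peak had to cover at least 50% of the consensus peak, 82 members were left untreated, 62 at 24 h, 48 at 48 h and 40 at 72 h.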
